A study of Mus musculus with 10 samples.

Results

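Kinesins, dyneins and tubulins build and use the microtubule tracks of a cell, and their transcripts were compared in single Bergmann glia of the mouse cerebellum at postnatal day 30 (P30) and postnatal day 6 (P6). The genes were taken by name: every gene whose symbol is that of a numbered kinesin heavy chain (Kif), a kinesin light chain (Klc), a subunit of a cytoplasmic dynein other than its light chains (Dync1, Dync2), a dynactin subunit (Dctn) or a tubulin (Tuba, Tubb, Tubg, Tube). This gave 68 of 17919 genes and 154 of 43608 probe sets, of which 36 genes were kinesin heavy chains, 3 were kinesin light chains, 7 were cytoplasmic dynein subunits, 6 were dynactin subunits and 16 were tubulins. A further 11 matching genes, among them Tuba1b, Tuba1c, Tuba3a, Klc2, Kif2b and Kif19a, had no complete probe set of their own and have no value here.

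The 5 P30 cells and the 5 P6 cells came from mice of the GFAP-GFP reporter line, in which the Gfap promoter drives GFP, and no other allele or treatment was named for either age. Cells were dissociated from the mid-sagittal cerebellum and picked one by one for strong GFP and for processes leaving one side of the soma, and the amplified cDNA of each cell was hybridised to 1 Affymetrix mouse genome array. No animal was named for any cell, so each age counts as 1 sample, and SD and ranges describe the spread among cells and not among mice. The values are ratios to a median of each probe set, used on the log2 scale, so that 0 is that median, and they show differences between cells and not how abundant one gene is beside another.

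Microtubules are hollow polymers of alpha and beta tubulin that are nucleated by gamma tubulin. Most kinesins walk towards their plus ends and carry cargo outward, while cytoplasmic dynein, helped by dynactin, carries cargo back to the cell body, and a separate set of kinesins builds and drives the mitotic spindle. Bergmann glia span the molecular layer with long radial processes, which guide migrating granule neurons in the young cerebellum and ensheathe synapses later.

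Promoter sequences are shown first for 4 kinesins of cell division, because they turned out to be the members that stood out together in a single cell. Kif11 did so through 1 of its 3 probe sets. Sequences are from RefSeq (GRCm38.p6), 250 bases before to 50 bases after the start of the gene, and 54 of the 68 members had one. Capitals mark TTTGAA, the core of the cell cycle homology region found at many genes that are switched on late in the cell cycle, and CCAAT, the NF-Y box, each searched on both strands so that TTCAAA and ATTGG count too. The 2 motifs can share at most 1 end base.

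The promoter of Kif11, whose motor pushes spindle poles apart, lies at chr19:37376132-37376431 on the plus strand and holds TTCAAA with its first base at position -19 from the start.
Kif11: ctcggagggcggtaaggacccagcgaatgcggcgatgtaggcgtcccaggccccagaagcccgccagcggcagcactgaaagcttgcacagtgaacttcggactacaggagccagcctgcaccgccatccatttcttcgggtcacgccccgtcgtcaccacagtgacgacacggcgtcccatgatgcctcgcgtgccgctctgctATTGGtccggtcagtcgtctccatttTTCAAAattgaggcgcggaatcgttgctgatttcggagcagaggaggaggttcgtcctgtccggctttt
That of Kif4, a motor that rides on chromosome arms, lies at chrX:100625815-100626114 on the plus strand and holds TTTGAA at position 20 after the start.
Kif4: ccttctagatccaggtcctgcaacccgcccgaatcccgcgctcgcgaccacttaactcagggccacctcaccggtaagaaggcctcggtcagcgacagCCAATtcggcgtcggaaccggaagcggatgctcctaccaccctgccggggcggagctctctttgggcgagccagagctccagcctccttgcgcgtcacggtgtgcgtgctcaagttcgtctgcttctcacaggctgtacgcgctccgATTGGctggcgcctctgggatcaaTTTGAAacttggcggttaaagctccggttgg
That of Kif22, another motor on chromosome arms, lies at chr7:127042371-127042670 on the minus strand and holds TTCAAA at -215 and at -17.
Kif22: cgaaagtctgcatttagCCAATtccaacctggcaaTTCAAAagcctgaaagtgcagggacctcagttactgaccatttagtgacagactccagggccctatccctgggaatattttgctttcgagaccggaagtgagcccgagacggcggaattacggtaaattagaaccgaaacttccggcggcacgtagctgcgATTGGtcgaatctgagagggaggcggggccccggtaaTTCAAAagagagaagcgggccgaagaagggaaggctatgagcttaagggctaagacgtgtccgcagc
That of Kif18a, which dampens the swinging of chromosomes at the spindle equator, lies at chr2:109280488-109280787 on the plus strand and holds neither motif in this window.
Kif18a: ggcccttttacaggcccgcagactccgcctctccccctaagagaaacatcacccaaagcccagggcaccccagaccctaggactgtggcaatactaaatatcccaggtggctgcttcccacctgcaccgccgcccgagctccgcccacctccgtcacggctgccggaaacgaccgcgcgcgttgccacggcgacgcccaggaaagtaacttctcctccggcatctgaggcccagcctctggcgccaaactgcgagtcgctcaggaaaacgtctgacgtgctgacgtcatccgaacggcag

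TTTGAA was found in 9 of the 10 kinesins of cell division with a promoter (90.0%), against 5 of the 44 other members (11.4%) and 18.1% of 27025 genes with such a sequence. None of the 9 promoters of cargo kinesins held it, and 2 of 12 tubulin promoters did. In the 9 kinesins of cell division it lay between -234 and 20, with matches close to the start at -19 in Kif15, 4 in Kif18b, 8 and 14 in Kif20b and 3 in Kif23. CCAAT was found in 6 of the 10 (60.0%), against 20 of 44 other members (45.5%) and 37.9% of all genes. A match is a stretch of letters and no measured binding site. No promoter was matched for Kif20a.

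The members as a whole differed between the ages about as often as other genes. The difference, the mean log2 ratio of the 5 P30 cells minus that of the 5 P6 cells, was within 2-fold for 50 of 68 members (73.5%), beside 70.1% of all genes. Over 3-fold higher at P30 were 2 members (2.94%), Tuba4a and Dync2li1, beside 4.93% of all genes. Over 3-fold lower at P30 were 9 members (13.2%), Kif26b, Dync1li2, Tubb2a-ps2, Tubg1, Klc3, Tubb5, Kif21a, Kif2a and Kif18a, beside 9.39% of all genes. In 1 member, Tuba4a, all P30 cells lay above all P6 cells, beside 1.41% of all genes, and in 1 member, Dync1li2, all P30 cells lay below all P6 cells, beside 2.13% of all genes. With 68 genes, a share moves by 1.47 percentage points for each gene, so these shares are not far from those of all genes.

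**Figure D1:**
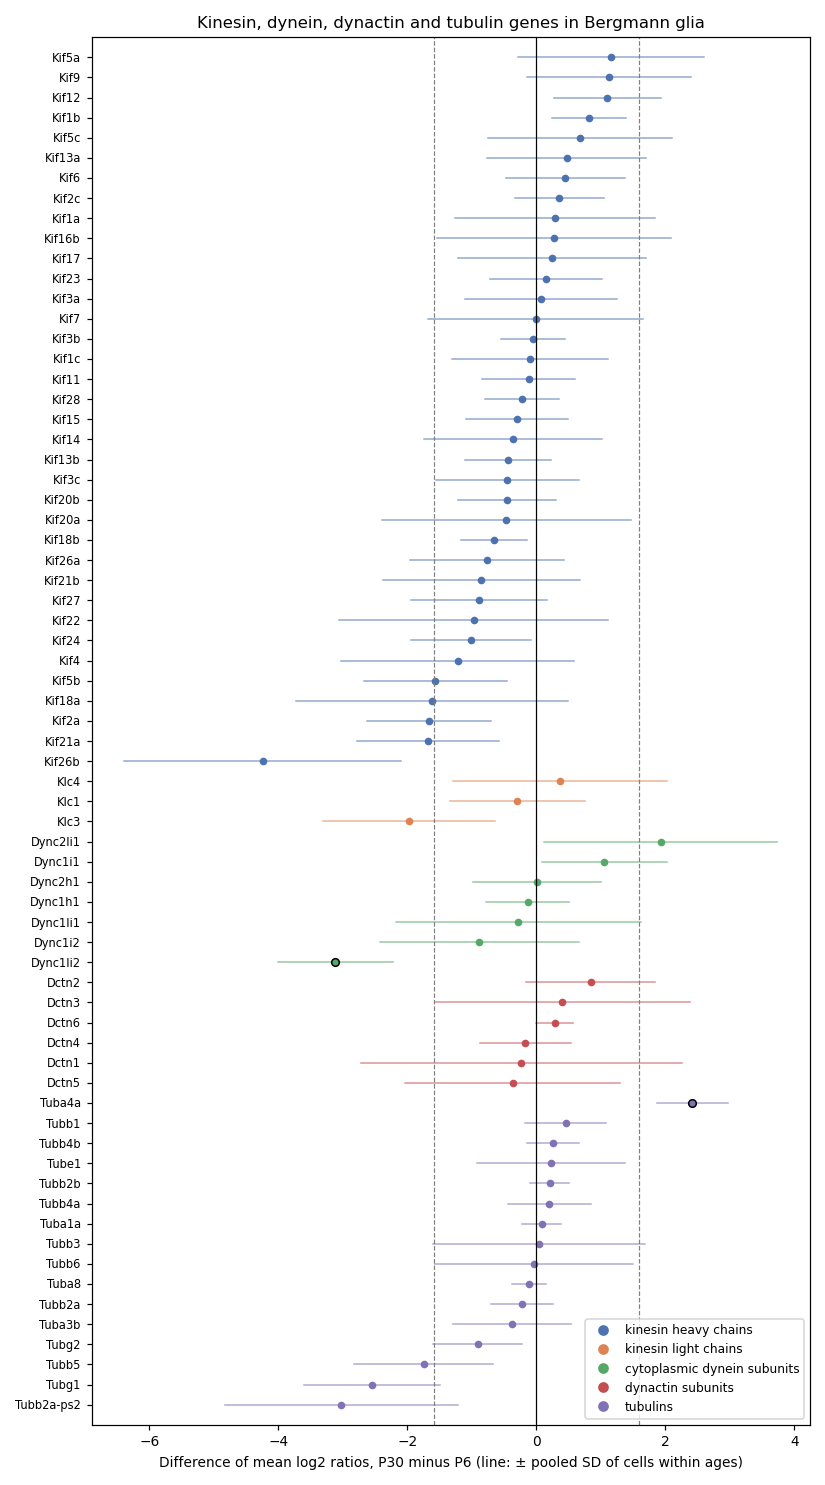
Difference of mean log2 ratios, P30 minus P6 (x axis), of the 68 genes (y axis), grouped by family. Points are differences, lines reach 1 pooled SD of cells within ages to each side, dashed lines mark 3-fold, and a black rim marks genes whose ages do not overlap: Tuba4a at 2.42 and Dync1li2 at -3.11 stand apart, and Kif26b at -4.24 is the lowest.

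The median difference was -0.26 over the kinesin heavy chains, -0.30 over the light chains, -0.13 over the dynein subunits, 0.06 over the dynactin subunits and 0.00 over the tubulins, against -0.05 over all genes. Making the hybridisation spikes equal moved every difference by -0.28 and making the array medians equal moved every one by 0.16, so the signs of the dynein, dynactin and tubulin medians depended on the scale, while the kinesin heavy and light chain medians stayed below 0 on both. Of the heavy chains, those of cell division had a median of -0.46 with 9 of 11 lower at P30, beside 52.4% of all genes, and without P6 replicate 5 the median was -0.30 with 6 of 11 lower. Those of cargo transport had a median of 0.07 and those of cilia one of 0.11, and the sign of both turns with equal spikes. Those of microtubule dynamics and the remainder had a median of -1.26 with 5 of 6 lower at P30.

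Tuba4a was the member with the clearest difference. It encodes an alpha tubulin that, unlike most alpha tubulins, carries no terminal tyrosine in its gene and is known from mature neurons and muscle. Its log2 ratio was 1.96, 2.66, 1.82, 3.01 and 1.63 in the P30 cells, against -0.03, 0.12, -0.72, 0.35 and -0.75 in the P6 cells. Every P30 cell was thus above every P6 cell, by at least 1.28 on the log2 scale. The means were 2.21 ± 0.59 in P30 cells and -0.20 ± 0.50 in P6 cells (SD, n = 5 cells each), which is 5.34-fold higher at P30. It rested on 2 of its 3 probe sets, which differed by 3.98 and 3.23 without overlap, while the third differed by 0.04. With any 1 cell left out the difference ran from 2.22 to 2.56.

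The other alpha tubulins measured did not show this. Tuba1a, the main alpha tubulin of the growing brain, had 0.14, 0.42, -0.10, 0.28 and -0.51 in P30 cells, against -0.13, 0.21, 0.09, 0.00 and -0.35 in P6 cells. Tuba8 differed by -0.11 and Tuba3b by -0.38, and the ages overlapped in all 3. Tuba1b and Tuba1c were covered only by probe sets that also name another gene.

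Among the beta tubulins, Tubb2b, a brain tubulin needed for neuronal migration, had 0.28, 0.18, 0.10, 0.24 and -0.56 in P30 cells, against -0.30, 0.00, 0.02, 0.02 and -0.52 in P6 cells. The ages would not overlap without P30 replicate 5. A second probe set that names Tubb2b and Tubb2a-ps2 together gave -3.64 with all P30 cells below all P6 cells, and with it added the difference of Tubb2b was -1.72 in place of 0.21. The value of Tubb2b thus depends on which probe set is taken to measure it. Tubb2a differed by -0.22 and Tubb4b by 0.25, and both ages overlapped in each.

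Tubb5, a beta tubulin of most cell types, was lower at P30 by 3.36-fold, with -3.14, -2.37, -0.41, -0.08 and -3.06 in P30 cells, against 0.00, -0.78, 0.32, -0.08 and 0.22 in P6 cells. The P30 cells fell into 3 low cells and 2 that lay among the P6 cells. Its 2 probe sets differed by -3.16 and -0.33. The 3-fold mark was missed without P30 replicate 1 (-1.41) or without P30 replicate 5 (-1.44).

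Tubb2a-ps2, a pseudogene of Tubb2a that the naming rule took in, had -3.78, -2.26, -3.22, -4.13 and -4.95 in P30 cells, against 1.09, 1.90, -2.74, -0.02 and -3.45 in P6 cells. All P30 cells were low, and so were P6 replicates 3 and 5. Cross-hybridisation of its probe sets with the parent gene was not tested.

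Tubb3, the beta tubulin used as a marker of neurons, varied more within ages than between them, with 1.61, -1.55, 1.68, -0.54 and 1.53 in P30 cells, against -1.19, 0.61, -0.34, 0.00 and 3.44 in P6 cells. P6 replicate 5 was the highest of the 10 cells. In that same cell the 15 general neuronal markers, which include Tubb3, lay a median of 2.86 above the median of the other P6 cells. The granule neuron markers lay 0.09 above it and the Purkinje neuron markers 0.38, again as medians. According to the methods, cells were kept only if the neuronal markers tested, Nefl, Map2 and in some cases Tubb3, were absent. These are among the 15 general neuronal markers.

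Gamma tubulin forms the ring complex from which microtubules grow. Tubg1, its broadly used gene, had -1.28, -2.18, -4.64, -3.71 and -2.56 in P30 cells, against -0.66, 0.35, 0.00, 0.06 and -1.39 in P6 cells. The ages overlapped only through P30 replicate 1 and P6 replicate 5, which were 0.11 apart on the log2 scale. The means were -2.88 ± 1.32 in P30 cells and -0.33 ± 0.70 in P6 cells (SD, n = 5 cells each). On its 1 probe set this is 5.85-fold lower at P30. Leaving out any 1 cell left the difference between -2.95 and -2.11. Its sister gene Tubg2 was lower at P30 by 1.88-fold, with overlap.

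**Figure D2:**
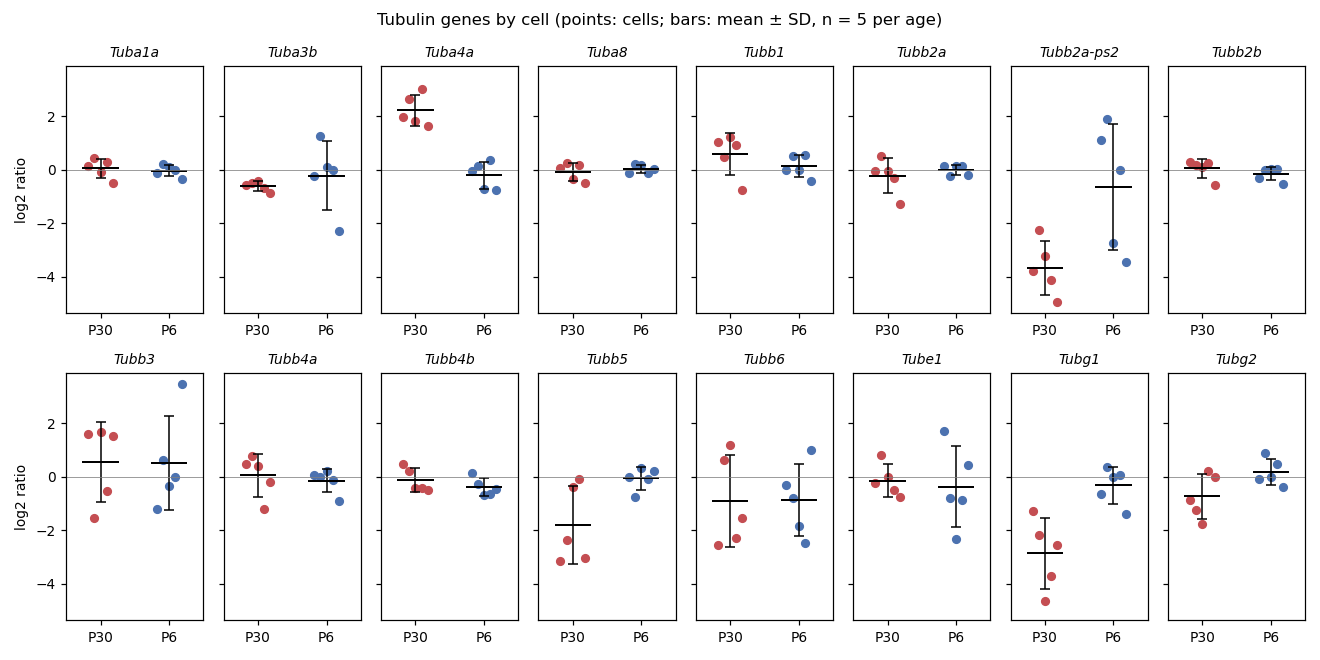
Log2 ratios (y axis) of the 16 tubulin genes in single cells, P30 left (red) and P6 right (blue), with mean ± SD over 5 cells. Tuba4a is the panel in which the ages are apart, Tubg1, Tubb5 and Tubb2a-ps2 are over 3-fold lower at P30, and Tuba1a, Tuba8 and Tubb2b hug 0 at both ages.

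Several tubulins had very little spread for single-cell data. The SD among cells, pooled over both ages, was 0.26 for Tuba8, 0.30 for Tuba1a, 0.30 for Tubb2b, 0.40 for Tubb4b and 0.48 for Tubb2a, against a median of 1.04 over all genes. Only 0.324% of genes had an SD as small as that of Tuba8, 0.910% one as small as that of Tuba1a and 0.988% one as small as that of Tubb2b. These SDs are of means over probe sets, 1 each for Tuba1a and Tubb2b, 2 each for Tuba8 and Tubb2a and 6 for Tubb4b. The 2 of Tuba8 ran from -1.33 to 0.17 and from -0.90 to 0.99 in P30 cells. Their mean ran only from -0.51 to 0.23, so its small SD partly reflects averaging. Over the 16 tubulins the median SD was 0.67 and 10 lay below the median of all genes, whereas 14 of 36 kinesin heavy chains did and their median SD was 1.14. Ratios carry no level, so whether the steadier genes were also the more abundant ones was not tested.

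Of the 36 kinesin heavy chains, 4 were over 3-fold lower at P30 (11.1%), beside 9.39% of all genes. None was over 3-fold higher, beside 4.93% of all genes. In no heavy chain were the ages apart, beside 1.41% of all genes with P30 cells above and 2.13% with P30 cells below. Kif26b, an unconventional kinesin tied to cell adhesion and polarity, had the largest difference of all members, with -2.82, -2.88, -3.69, -3.99 and -4.83 in P30 cells, against 2.99, 0.00, -3.43, 3.86 and -0.40 in P6 cells. All P30 cells were low, while the P6 cells ran from the range of the P30 cells to the highest values. The means were -3.64 ± 0.84 in P30 cells and 0.60 ± 2.91 in P6 cells (SD, n = 5 cells each), which is 18.9-fold lower at P30 on 1 probe set. Without P6 replicate 3 the ages did not overlap.

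Kif2a is a kinesin that does not walk but takes microtubules apart at their ends, and it limits the growth of axon branches. It had -1.76, -3.24, -1.33, -2.20 and -2.37 in P30 cells, against -1.15, -1.37, 1.51, -0.78 and -0.80 in P6 cells, 3.17-fold lower at P30. The overlap was between P30 replicate 3 and P6 replicate 2, and P6 replicate 3 lay far above the rest. Without P6 replicate 3 the difference was -1.16, under 3-fold. Its 5 probe sets gave -0.75, -2.52, 0.66, -5.51 and -0.19, and in the one at -5.51 all P30 cells lay below all P6 cells.

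Kif21a, which slows microtubule growth at the cell edge, had -0.12, -2.95, -1.26, -3.61 and -2.33 in P30 cells, against -0.48, 0.36, -0.58, 0.23 and -1.38 in P6 cells. It was a calculated 3.20-fold lower at P30, with 1 of its P30 values at the deposited floor of 0.01. The difference of -1.68 was just past 3-fold. It was -1.35 with a floor of 0.1, -1.24 with arithmetic means and -1.52 with equal array medians, and it fell short of 3-fold too without P30 replicate 2 or 4 or without P6 replicate 2 or 4, being -1.29 without P30 replicate 4. Its 3 probe sets gave -0.94, -2.18 and -1.92.

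Kif2a was not alone in having probe sets that disagreed. In 22 of the 41 members with 2 or more probe sets, Kif2a, Kif5b, Tuba4a, Dync1li2 and Tubb5 among them, the probe sets of one gene differed by over 3-fold among themselves. The same share over all genes was not computed, so it is not known whether this is unusual. In none of the 41 were there probe sets past 3-fold in opposite directions, though some came near it. Kif13b had probe sets at -3.51 and 1.57, and Kif13a had some at -1.52 and 1.85. The cDNA was primed from the poly-A tail and kept short, and what part the distance of a probe set from that tail played was not tested.

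The cargo kinesins, which carry vesicles, organelles and RNA, had no member whose calculated difference was past 3-fold. Kif5b, the heavy chain of conventional kinesin in most cells, came nearest, with -3.20, -0.27, -0.42, -2.73 and -0.33 in P30 cells, against 0.42, -0.21, 1.03, 0.21 and -0.57 in P6 cells. P30 replicates 1 and 4 were low and the other P30 cells lay among the P6 cells. The calculated difference was 2.96-fold lower at P30, just outside the 3-fold mark, while Kif18a at 3.08-fold was just inside. Since 3 P30 values of Kif5b stood at the floor, its true difference may be larger. Over the 20 alternatives the difference ran from -1.85 to -0.62, and with any 1 cell left out from -1.85 to -1.12. Kif5b was past 3-fold in 7 of the 20, such as -1.85 without P30 replicate 2, -1.75 without P6 replicate 5 and -1.84 with equal spikes. Its 6 probe sets ran from -2.98 to -0.17, all below 0.

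Kif1b, a carrier of mitochondria and synaptic vesicle precursors, had 1.45, 0.77, 0.97, 1.09 and -0.24 in P30 cells, against 0.05, -0.79, -0.06, 0.63 and 0.09 in P6 cells. It was 1.77-fold higher at P30, and the ages overlapped only through P30 replicate 5. Of its 7 probe sets 6 were above 0, and the 7th was at -0.0032. Kif3a, a motor of cilia and of cargo transport, differed by 0.07 with overlap.

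Kif5a, a neuronal form of conventional kinesin, had -0.95, -0.09, -0.96, 2.59 and 1.76 in P30 cells, against 0.16, -1.57, -0.02, 0.41 and -2.41 in P6 cells. P30 replicates 4 and 5 alone were high in this mean, which followed 1 of its 2 probe sets. That one had 4.49 in P30 replicate 4 and 1.14 in P30 replicate 5, was below 0 in the other P30 cells and differed by 0.83. The other had 1.16, 1.18, 2.16, 0.69 and 2.38 in P30 cells, against -0.04, 0.43, 0.44, -0.65 and 0.00 in P6 cells, and its difference of 1.48 came without overlap. In P30 replicate 5 the 7 Purkinje neuron markers lay a median of 2.58 above the median of the other P30 cells. The 10 endothelial and pericyte markers lay a median of 2.17 above it and the 15 general neuronal markers a median of 0.57. In P30 replicate 4 the granule neuron markers deviated by 0.68, the oligodendrocyte markers by 0.58, the Purkinje neuron markers by 0.05 and the general neuronal markers by 0.00. The part of other cells in these values was not tested.

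The light chains link conventional kinesin to its cargo. Klc3 had -1.16, -1.21, -3.13, -1.07 and -3.40 in P30 cells, against 0.55, 2.04, -0.71, -1.97 and 0.00 in P6 cells. It was 3.93-fold lower at P30 on 1 probe set. P6 replicate 4 alone lay within the P30 range, and without P6 replicate 2 the difference was -1.46, under 3-fold. Klc1 differed by -0.30 and Klc4 by 0.37, both with overlap.

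**Figure D3:**
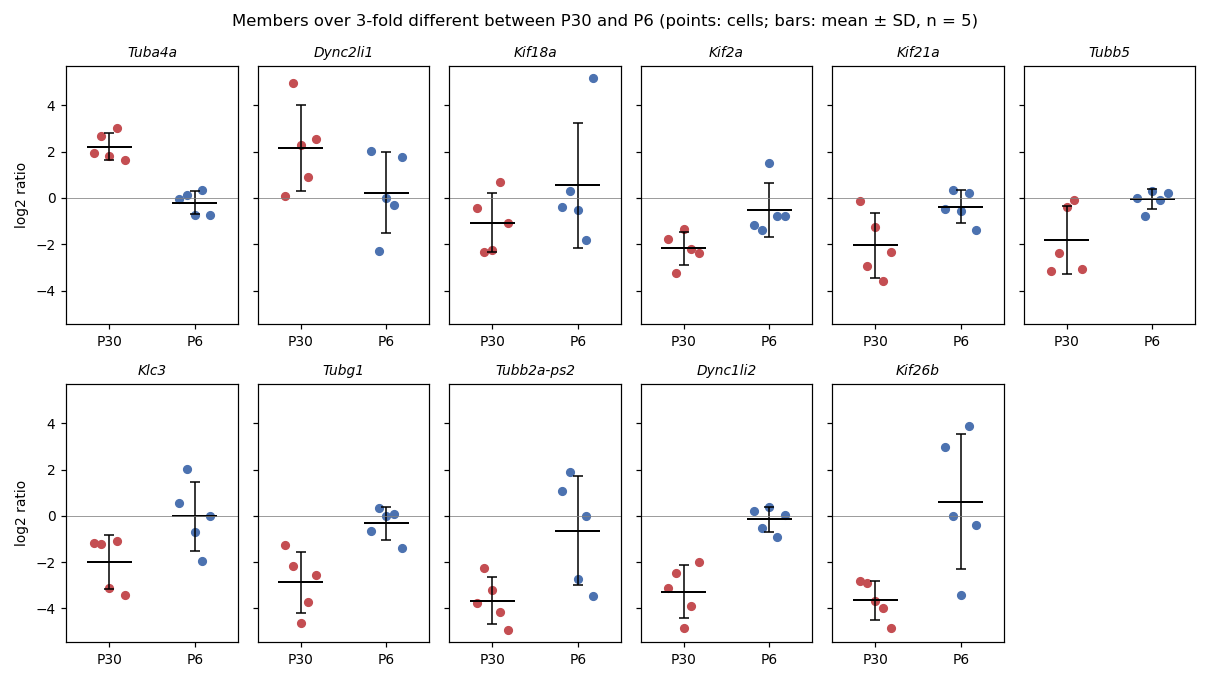
Log2 ratios (y axis) in single cells of the 11 members over 3-fold different, P30 left (red) and P6 right (blue), with mean ± SD over 5 cells. Only Tuba4a and Dync1li2 show no overlap, and in Kif18a the P6 mean is lifted by P6 replicate 5 at 5.17.

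Cytoplasmic dynein 1 is built on the heavy chain Dync1h1, with intermediate chains that bind dynactin and light intermediate chains that bind cargo adaptors. Dync1li2, a light intermediate chain, had -3.11, -2.48, -4.86, -3.91 and -1.998 in P30 cells, against 0.22, -0.52, 0.39, -0.91 and 0.04 in P6 cells. All P30 cells lay below all P6 cells, by 1.09 or more. The means were -3.27 ± 1.14 in P30 cells and -0.16 ± 0.54 in P6 cells (SD, n = 5 cells each), a calculated 8.66-fold lower at P30. Of the P30 values 2 stood at the floor, so the size of the Dync1li2 difference depends on the floor. Its 2 probe sets gave -4.83, without overlap, and -1.40, with overlap, and a floor of 0.1 in place of 0.01 gave -2.14 for the gene.

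Its sister chain Dync1li1 had 3.25, 0.27, -0.15, -3.60 and -2.35 in P30 cells, against 0.13, -0.40, 0.15, 0.00 and -1.07 in P6 cells. It differed by -0.28 with a far wider spread in P30 cells. Dync1h1 differed by -0.13 and ran from -1.31 to 0.58 in P30 cells, against -0.65 to 0.14 in P6 cells. Dync1i1, the intermediate chain known mainly from neurons, had 0.80, 0.92, 0.01, 0.53 and 3.50 in P30 cells, against -0.04, 0.00, 0.49, 0.07 and -0.03 in P6 cells. Its highest cell was P30 replicate 5, the cell with the high Purkinje and vessel markers.

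Cytoplasmic dynein 2 returns material from the tip of the cilium. Dync2li1, its light intermediate chain, had 0.08, 4.95, 2.30, 0.91 and 2.55 in P30 cells, against 2.03, -2.31, 0.00, -0.32 and 1.76 in P6 cells. The ages overlapped widely. The 3.80-fold higher mean at P30, on 1 probe set, came down to 1.23 on the log2 scale without P30 replicate 2. Without P6 replicate 2 it was 1.29, and both were under 3-fold. Dync2h1, its heavy chain, differed by 0.01.

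Dynactin tethers dynein to its cargo and switches it into a long-running motor. No dynactin gene passed 3-fold in either direction, and the largest difference was 0.84 for Dctn2. The pattern in this family was between cells and not between ages. In P6 replicate 4, 4 of the 6 genes were over 3-fold below the median of the other P6 cells, beside 10.7% of all genes in that cell. Dctn1, the p150 subunit that grips the microtubule, deviated by -5.46 on the log2 scale, Dctn3 by -4.78, Dctn5 by -4.67 and Dctn2 by -2.97. In P30 replicate 4, Dctn1 deviated by -5.52 and Dctn3 by -3.84 from the median of the other P30 cells, beside 15.1% of all genes over 3-fold below, while Dctn5 deviated by 1.74.

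Dctn1 itself had 0.33, 0.22, -0.61, -5.71 and -0.61 in P30 cells, against 0.04, 0.31, 0.02, -5.44 and -0.16 in P6 cells. The other 8 cells lay within 0.95 of each other on the log2 scale, and 94.6% of genes had a pooled SD no larger than its 2.49. Dctn3 had 0.42, 0.99, 0.33, -3.46 and -0.22 in P30 cells, against -0.13, 0.54, 0.29, -4.64 and 0.00 in P6 cells. Low values were shared by the same 2 cells. Dctn6, a subunit at the pointed end of the complex, behaved otherwise, with 0.41, 0.19, 0.38, 0.50 and -0.42 in P30 cells, against 0.04, -0.22, 0.09, 0.01 and -0.27 in P6 cells, and its pooled SD of 0.29 was among the smallest 0.608% of genes. Whether transcripts were missed in the amplification of single cells was not tested.

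**Figure D4:**
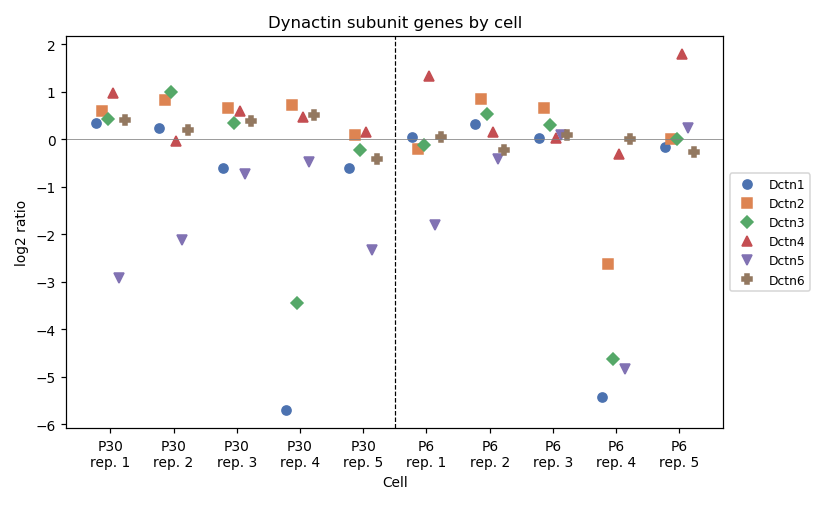
Log2 ratio (y axis) of the 6 dynactin genes in each cell (x axis), P30 cells left of the dashed line and P6 cells right of it. Dctn1 and Dctn3 are far below the other cells in P30 replicate 4 and P6 replicate 4, and Dctn2 and Dctn5 are low in P6 replicate 4 as well.

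The kinesins of cell division move chromosomes, hold the spindle together and close the dividing cell. Of the 11, Kif18a alone was past 3-fold, with -0.43, -2.32, -2.24, 0.69 and -1.07 in P30 cells, against -0.39, 0.31, -0.52, -1.82 and 5.17 in P6 cells. This rested on 1 probe set and on P6 replicate 5, and without that cell the difference was -0.47. In that cell 5 of the 11 were over 3-fold above the median of the other P6 cells, beside 11.9% of all genes, and 1, Kif14, which acts in cytokinesis, deviated by -2.34. Kif22 deviated by 6.35, Kif20a, a motor of the spindle midzone, by 5.87, Kif18a by 5.63, Kif4 by 3.97 and Kif11 by 1.65. For Kif11 this rested on 1 of its 3 probe sets, which had 4.55 in P6 replicate 5, while the others had -0.41 and 0.32.

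Kif22 had 0.93, 0.41, 0.83, 0.19 and -0.84 in P30 cells, against 0.01, -0.78, 1.11, -0.21 and 6.25 in P6 cells. Kif20a had -0.13, 0.84, 0.26, 0.61 and -0.44 in P30 cells, against -0.55, 0.33, -0.42, -1.26 and 5.38 in P6 cells. Kif4 had -1.13, -0.73, -2.05, -1.30 and -1.58 in P30 cells, against -3.49, -0.73, 0.13, -0.14 and 3.54 in P6 cells. In each of these, P6 replicate 5 was the highest of the 10 cells and alone far above the rest.

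The same cell was high in genes of proliferation at large. In it 19 of 22 proliferation markers were over 3-fold above the median of the other P6 cells, beside 11.9% of all genes. Plk1, Birc5 and Cdc20 were among them. The median deviation of the 22 was 3.79. Of the 19, Mki67, Mcm2 and Mcm6 were higher still in another P6 cell, Mki67 in P6 replicate 1 and the others in P6 replicate 3. Over all genes the median deviation of this cell was -0.15. Its general neuronal markers were high as well, at 2.86 over 15 genes, though Nefl, Nefh and Syt1 had their lowest P6 value there. Median deviations were 0.09 for its granule neuron markers, 0.38 for its Purkinje neuron markers and -0.49 for its Bergmann glia and astroglia markers. Between the ages the proliferation markers had a median difference of -1.81, with 12 of 22 over 3-fold lower at P30, beside 9.39% of all genes. Without P6 replicate 5 the median was -1.11 and 7 of 22 were over 3-fold lower, beside 9.67% of all genes. The share of neuronal RNA or of the division cycle in these values was not tested.

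**Figure D5:**
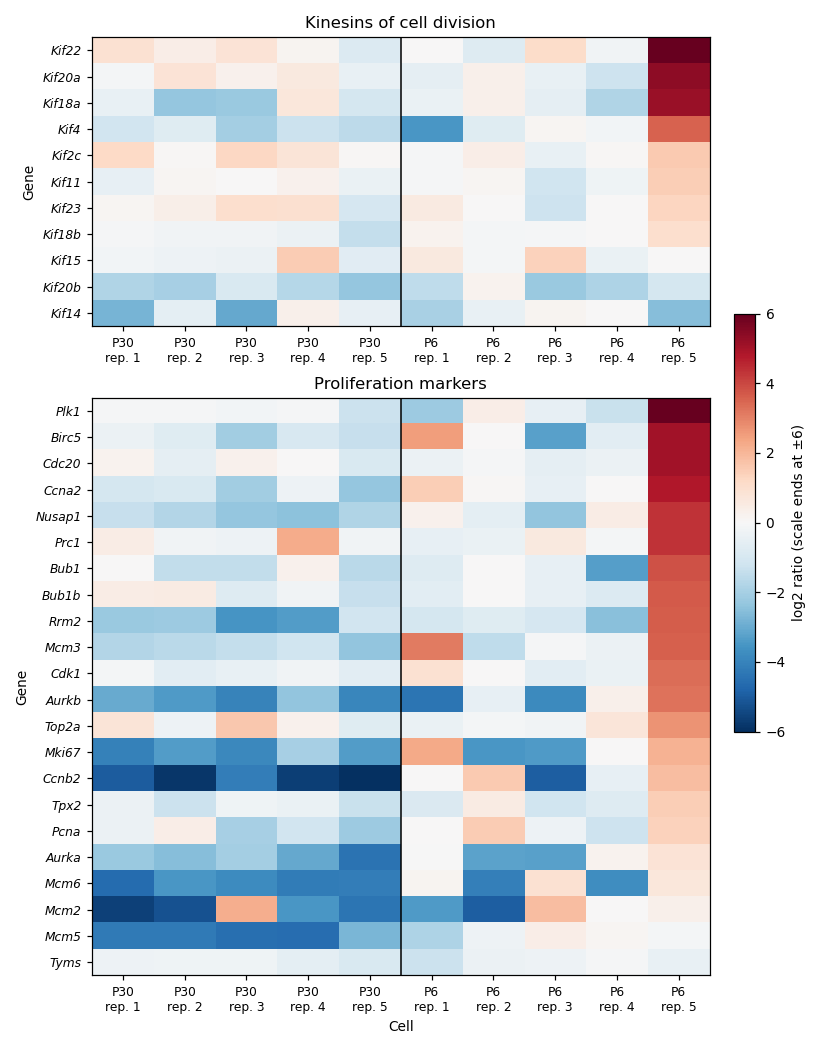
Log2 ratios (colour) of the 11 kinesins of cell division (top) and of 22 proliferation markers (bottom) in each cell (x axis), P30 cells left of the black line. In the column of P6 replicate 5, Kif22, Kif20a, Kif18a and Kif4 are far above 0 together with most proliferation markers.

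Other genes of the microtubule system, from lists outside the naming rule, were read against the shares of 4.93% higher and 9.39% lower over all genes. Of 7 dynein light chains none was over 3-fold higher and 2 were over 3-fold lower at P30, Dynll2 at -1.97 and Dynlt1f at -1.71. Of 17 dynein regulators and adaptors 1 was higher, Ninl at 1.66, and none was lower. On its 1 probe set, Ninl had -6.64, 5.57, -0.71, -2.51 and -3.94 in P30 cells. Its P6 cells ran from -6.37 to 0.00, so the ages overlapped widely and P30 replicate 2 alone was high. Of 16 kinesins outside the numbered series and kinesin adaptors, Kifc3, a minus-end motor, was higher at 2.43, and Trak2, which links mitochondria to kinesin, was lower at -1.62.

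Of 36 microtubule-associated proteins 2 were over 3-fold higher and 4 over 3-fold lower at P30, with a median of -0.07. Tppp3, a tubulin polymerisation promoting protein, had 4.92, 4.63, 4.07, 3.15 and 2.97 in P30 cells, against -0.66, 0.00, 0.83, 0.73 and -3.20 in P6 cells. Map1s, a short member of the MAP1 family, had -5.10, -4.91, -4.46, -3.49 and -4.56 in P30 cells, against -0.51, 0.61, 1.96, -0.50 and 0.00 in P6 cells. Neither overlapped, with 2.14 between the nearest cells of the 2 ages in Tppp3 and 2.97 in Map1s. Of 34 genes for tubulin folding, nucleation and modification 2 were higher and 5 lower, with the gamma tubulin ring subunits Tubgcp3 at -2.64 and Tubgcp6 at -2.23.

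Among 23 genes of intraflagellar transport, which runs along the cilium on kinesin-2 and dynein 2, none was over 3-fold higher and 4 were lower at P30, with Tctex1d2 at -3.92 and Ift43 at -2.66. Of 12 axonemal dyneins, motors of beating cilia, 1 was lower at P30, Dnah11 at -3.16, with no overlap. The label of the cells was checked against 20 Bergmann glia and astroglia markers, of which 2, Gja1 at 3.17 and Aldoc at 3.14, were over 3-fold higher at P30 and none was lower, with 3 values in all at the floor. Cells had been picked by GFP under the Gfap promoter. According to the methods they were kept only with Gfap, Fabp7 and Slc1a3 present, and these are among the 20. Gfap ran from -3.30 to 0.77 in P30 cells and from -5.85 to 1.10 in P6 cells. Since ratios carry no level, they cannot show that these markers were present, and age means cannot show whether one was lost in single cells.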

How the data were processed

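Single Bergmann glia were profiled on 10 arrays, 5 at P30 and 5 at P6. According to the methods, the authors ran RMA in GeneSpring GX 7.3, raised values under 0.01 to 0.01, scaled every array by its median and divided every probe set by the median across the whole set of samples. These ratios were deposited on a linear scale, and a genome build is not given in the sources used here. The P6 median was within 0.002 of 1 in 69.6% of complete probe sets and the median of all cells in 2.07%, so the values depart from that description, with a divisor that was mostly the P6 median, which draws P6 cells towards 0. Raw signals were not used.

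Complete values were found for 43608 of 45101 probe sets, and the 1493 with a blank were left out, so genes without a P6 value are missed. The platform annotation, with symbols updated to GRCm38.p6, gave 34958 probe sets 1 gene, 932 several and 9211 none. A gene was the mean log2 ratio over its probe sets with 1 gene, and 27 members had 1 probe set.

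The main quantity was the P30 mean minus the P6 mean on the log2 scale, with a mark at 3-fold, and groups were called apart where no cell of one age reached the range of the other. With 1 sample per age no p-value was computed, and the number of arrays limits the precision. The deviation of a cell is its value minus the median over the remaining 4 cells of that age. The genes named are members past 3-fold, those with ages apart, the 3 with the largest difference in each family, genes the study names, a set of broadly used motors and tubulins, and the 2 largest past 3-fold of each other list. Kif4, Kif5a, Kif11, Kif13a, Kif13b, Kif14, Kif20a, Kif22, Dctn6, Tuba3b, Tuba8, Tubg2, Dync1li1 and Dync2h1 fall outside this and were chosen after values were seen. The same holds for the proliferation markers named, Nefl, Nefh, Syt1, Map2, Gfap, Fabp7, Slc1a3 and the promoter motifs. The members and lists were chosen with earlier results of these data known. Steps were tested on simulated data. The software was Python 3.11.15, pandas 2.3.3, NumPy 2.4.6 and Matplotlib 3.10.9. Alternatives were 2 other scalings, a floor of 0.1, medians or arithmetic means over cells, 2 other rules for probe sets, a 2-fold rule, each cell left out in turn, and 3 settings added after seeing the data. P6 replicate 5 was also left out of the kinesins of cell division and the proliferation markers, again after seeing the data.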

Additional observations from a re-analysis of the deposited data

Results flagged for a closer look

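In 11 of 68 groups of 5 cells (16.2%), 1 cell lay so far from the others that its gap to the nearest exceeded 0.71 of the range, as it did in 9.26% of groups of 5 cells over all genes and both ages. The critical value lets through about 5% of groups drawn from a normal distribution. P30 replicate 4 was low in Dctn1 at -5.71 (log2 ratio, nearest other P30 cell -0.61) and in Dctn3 at -3.46 (nearest -0.22). P6 replicate 4 was low in Dctn1 at -5.44 (nearest other P6 cell -0.16), in Dctn3 at -4.64 (nearest -0.13) and in the median of the dynactin subunits at -3.64 (nearest -0.05). P30 replicate 5 was high in Dync1i1 at 3.50 (nearest 0.92) and low in Tubb2b at -0.56 (nearest 0.10). P6 replicate 3 was high in Kif2a at 1.51 (nearest -0.78) and in Dync1i1 at 0.49 (nearest 0.07). P6 replicate 5 was high in the median of the kinesins of cell division at 1.49 (nearest 0.03). P30 replicate 3 was low in the median of the cargo kinesins at -0.84 (nearest -0.31).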

How the results depend on the processing

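Of 539 values of 27 named genes under the alternatives, none of a gene past 3-fold in the main comparison changed sign. Of these values, 535 stayed within the SD among cells and 4, of Dync1li2, Tuba4a and Tubb2b, moved further. Leaving out 1 of 5 cells cannot move a difference by that SD. The 2 other scalings shifted values by less than the SD of any named gene. A value could thus not count as moved in these settings. Tubb2b was at -1.72, past 3-fold and of the opposite sign to its 0.21, once the probe set it shares with Tubb2a-ps2 was added. With 1 cell left out in turn, 1 to 3 members were over 3-fold higher at P30, beside 5.10% to 5.66% of all genes. The number over 3-fold lower was 7 to 10, beside 9.18% to 10.7%. All P30 cells lay above all P6 cells in 1 to 4 members and below them in 1 to 4. The main counts were 2, 9, 1 and 1. With equal spikes 4 members had all P30 cells below, and the kinesin heavy chain median was -0.54. With arithmetic means 5 members were over 3-fold higher, beside 7.02% of all genes, and the dynein median was 0.46. With the median over probe sets 2 members had all P30 cells below. With a 2-fold rule 6 members were higher, beside 11.7% of all genes. Without P6 replicate 5 and P30 replicates 4 and 5, an alternative added after seeing the data, 6 had all P30 cells above and 5 below, and the dynein median was 0.45. Without replicate 4 of both ages, also added, 3 had all P30 cells below. Ages lie apart more easily with fewer cells, and the share of all genes with ages apart was not computed for the alternatives. The cause of these moves was not tested. Tuba4a, Dync1li2, Kif26b, Tubg1 and Tubb2a-ps2 were past 3-fold in the same direction under all 20 alternatives, Klc3 and Dync2li1 under 18, Tubb5 under 16, Kif18a and Kif2a under 14 and Kif21a under 11. Signal over background was not used here, so weak probe sets could not be set aside. No paired analysis was possible because the replicate numbers only name cells and no result comes from a test.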

Other observations

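Probe sets that name a tubulin together with another gene entered no gene value. Of these, 2 name Tuba1c and Gm6682: the first had -5.55, -2.81, -3.49, -4.45 and -2.43 in P30 cells, against 0.05, -0.36, 0.00, -2.42 and 0.89 in P6 cells, with all P30 cells just below all P6 cells, and the second differed by -3.75 with overlap. The probe set of Tuba1b and Gm5620 differed by -0.99, and that of Tuba1a and Gm6682 by 0.38, both with overlap. Probe sets with no P6 value could not be compared. Of these, one of Kif5a had a linear ratio of 12.2 for P30 replicate 5 and one of 1.53 for P30 replicate 4, while the probe set of Kif2b, a relative of Kif2a, had 7.15 in P30 replicate 4 alone.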
